A study of Mus musculus with 9 samples.

Results

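Cells make cholesterol from acetyl-CoA through the mevalonate and sterol pathways, and fatty acids by carboxylation of acetyl-CoA and repeated chain extension, and 40 mouse genes of these pathways and of their control and export were listed by name. Of these, 39 were found among the 20418 gene symbols of the deposited tables, each represented by its transcript with the highest mean read count, and Hmgcs1 was not analysed here. They comprise 6 mevalonate pathway enzymes, 11 enzymes from squalene to cholesterol, 6 genes of the SREBPs, their control and sterol transport, 4 enzymes that supply or use acetyl-CoA for fatty acids, 7 elongases and desaturases, and 5 genes of the LXR receptors and sterol export. All 39 passed the filter on low counts.

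The RNA came from splenic CD8+ T cells of 6-week-old female C57BL/6 mice. The cells were treated with IL-15 or IL-2 at 500 nM for 24 h, at 500 nM for 4 h, at 1 nM for 24 h or at 1 nM for 4 h, or were left untreated. Each of these 9 conditions is 1 library, made from RNA of 3 identically treated samples pooled before amplification, so variation between animals or cultures was not measured. The labels do not say how long the untreated cells were kept, so time with cytokine and time in culture cannot be told apart. IL-2 and IL-15 are cytokines that signal through shared receptor chains and drive the growth and survival of CD8+ T cells. The study's title names the functional difference between them.

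Sterol synthesis is controlled by SREBP transcription factors, which the escort protein SCAP carries out of the endoplasmic reticulum when sterols are low and which INSIG proteins hold back when sterols are high. LXR nuclear receptors act on the other side: when oxidised sterols accumulate they raise the genes of sterol export. Activated T cells are known to make membrane lipid as they grow and divide.

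SREBP-bound promoters often also hold the CCAAT box bound by NF-Y. Promoters of 31 of the 39 genes were found in RefSeq sequence of the GRCm38.p6 build, 41 promoters in all since 7 genes had several, each running from 250 bases before the start to 50 bases after it. The submitters aligned reads to the older mm8 build, and no position of that build is used here. The 8 genes without a promoter there, Fdps, Fdft1, Sqle, Stard4, Scd1, Scd2, Fads1 and Abcg1, were not searched. The sterol regulatory element core TCACNCCAC, searched on both strands, was in 0 of the 41, and in 1.24% of all 32851 promoters. Letters this rare would seldom be met in any 41 promoters, so their absence does not set these genes apart from others. CCAAT, searched on both strands (ATTGG on the printed one), was in 24 of the 41, or 58.5%, and in 37.4% of all promoters. Among the genes higher at 500 nM after 24 h, described later, 12 of 18 promoters (of 15 genes) held it (66.7%), and among those lower, 2 of 4 (of 3 genes, 50%). Promoters of 1 gene can overlap, as the 2 of Nr1h3 do, so these are not independent counts. A match of this kind describes letters in a window and not a bound site. The 250 bases before the start of 4 genes are printed as examples, chosen after their values were seen: Idi1 of the mevalonate pathway, Cyp51 of the sterol pathway and Fasn of fatty acid synthesis, all higher at 500 nM after 24 h, and Nr1h3, which was lower. Capitals mark CCAAT or ATTGG. Idi1 lies at chr13:8885356-8885605 on the plus strand, Cyp51 at chr5:4104698-4104947, Fasn at chr11:120824548-120824797 and Nr1h3 at chr2:91195117-91195366, these last on the minus strand.
Idi1: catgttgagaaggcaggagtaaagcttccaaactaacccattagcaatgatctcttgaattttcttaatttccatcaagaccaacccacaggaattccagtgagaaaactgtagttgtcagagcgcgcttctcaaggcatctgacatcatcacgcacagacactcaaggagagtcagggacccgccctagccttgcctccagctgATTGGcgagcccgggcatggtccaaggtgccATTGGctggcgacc
Cyp51: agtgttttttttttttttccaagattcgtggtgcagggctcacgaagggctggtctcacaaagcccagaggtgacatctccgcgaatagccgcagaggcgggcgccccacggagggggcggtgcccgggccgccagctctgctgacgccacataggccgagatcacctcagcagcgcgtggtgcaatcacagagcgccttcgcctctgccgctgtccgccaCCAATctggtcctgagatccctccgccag
Fasn: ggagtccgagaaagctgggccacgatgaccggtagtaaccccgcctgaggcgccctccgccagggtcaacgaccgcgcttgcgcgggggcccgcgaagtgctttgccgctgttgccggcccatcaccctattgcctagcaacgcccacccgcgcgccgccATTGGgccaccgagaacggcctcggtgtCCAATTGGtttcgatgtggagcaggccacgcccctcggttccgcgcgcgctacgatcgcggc
Nr1h3: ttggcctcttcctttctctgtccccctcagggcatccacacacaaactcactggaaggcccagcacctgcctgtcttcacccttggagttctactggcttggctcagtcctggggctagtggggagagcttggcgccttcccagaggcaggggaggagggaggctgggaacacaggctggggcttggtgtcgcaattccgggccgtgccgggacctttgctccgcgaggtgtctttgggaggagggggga
Idi1 held 2 boxes, starting 45 and 14 bases before the start of the gene. Cyp51 held 1, starting 29 bases before it. Fasn held 3, starting 90, 62 and 59 bases before it, and the last of these shares bases with its neighbour on the other strand. The printed Nr1h3 promoter, 1 of 2 listed for that gene, held none. Other genes went against these examples. Mylip (3 boxes) and Acss2 (1), both lower at 500 nM after 24 h, held the box. Acat2, Acaca and Scap, all higher there, held none.

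Library depth ran from 27158143 to 48799962 reads assigned to genes, and levels are given as read counts per 1000000 (CPM) after TMM scaling. The CD8+ label was checked against 12 T cell genes. Cd8a stood between 392.9 and 984.7 CPM and Cd3e between 45.6 and 89.6 CPM in the 9 libraries. The 12 genes summed to 6351 CPM in untreated cells and to between 3613 and 6069 CPM in treated libraries. In each treated library, between 7 and 11 of the 12 were below untreated, and Trat1 was below 1 CPM. A list of 4 CD4+ T cell markers summed to between 21.6 and 48.2 CPM. Genes of other cells were also present and followed the conditions. The summed level of 16 macrophage and monocyte markers was 50.4 (IL-15) and 71.1 (IL-2) CPM at 500 nM for 24 h, 218.2 and 268.7 CPM with these cytokines at 500 nM for 4 h, 1480 and 1208 CPM at 1 nM for 24 h, and 366.1 and 374.6 CPM at 1 nM for 4 h. Untreated cells had 2282 CPM. Of these 16 markers, 2 (Itgam and Hmox1) had no read in both 500 nM libraries at 24 h. The summed level of 12 B cell markers was 565.5 (IL-15) and 472.2 (IL-2) CPM at 500 nM for 24 h, and between 1175 and 1930 CPM in the other 7 libraries. A list of 21 genes of S phase and mitosis summed to 6955 (IL-15) and 7069 (IL-2) CPM at 500 nM for 24 h, and to between 1055 and 1936 CPM in the other 7. In bulk RNA, fewer cells of a type and less RNA per cell cannot be told apart, and the part of these shifts in the results was not tested.

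With 1 library per condition, the spread was taken from the layout: the IL-15 and IL-2 libraries of each dose and time stood in for repeats, with an overall cytokine term, in edgeR's quasi-likelihood fit of all 13479 genes that passed the filter. A gene is called where its Benjamini-Hochberg adjusted p over those genes is under 0.05. Fold changes are log2, 500 nM over 1 nM unless stated, with ± 1 SE.

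The most calls came with dose after 24 h. Of the 39 genes, 21 were higher and 5 lower at 500 nM than at 1 nM after 24 h, while over all genes 15.6% were higher and 15.6% lower. The median log2 fold change was 0.74 over the 39 genes and -0.04 over all genes tested. In 22 of the 39 genes both 500 nM libraries at 24 h stood above the other 7 libraries, which was so for 18.6% of all genes, and in 6 they stood below, which was so for 15.5%. Those on top were all 6 mevalonate enzymes, 7 of 11 sterol enzymes, 3 of 4 fatty acid enzymes, 4 of 7 elongases and desaturases, 2 of 6 control genes and 0 of 5 LXR and export genes. The S phase and mitosis list moved the same way, with 21 of 21 higher at 500 nM after 24 h, and its part in these counts was not tested. Without either 500 nM library at 24 h, the number of the 39 genes called for dose at 24 h was 17 instead of 26. Called in every refit that left out 1 of the 9 libraries were 14 genes: Acat2, Idi1, Fdps, Sqle, Lss, Cyp51, Sc5d, Acaca, Fasn and Scd2 among the higher ones, and Acss2, Nr1h3, Abcg1 and Mylip among the lower. The other 12 missed the threshold without 1 or more of the 24 h libraries.

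**Figure D1:**
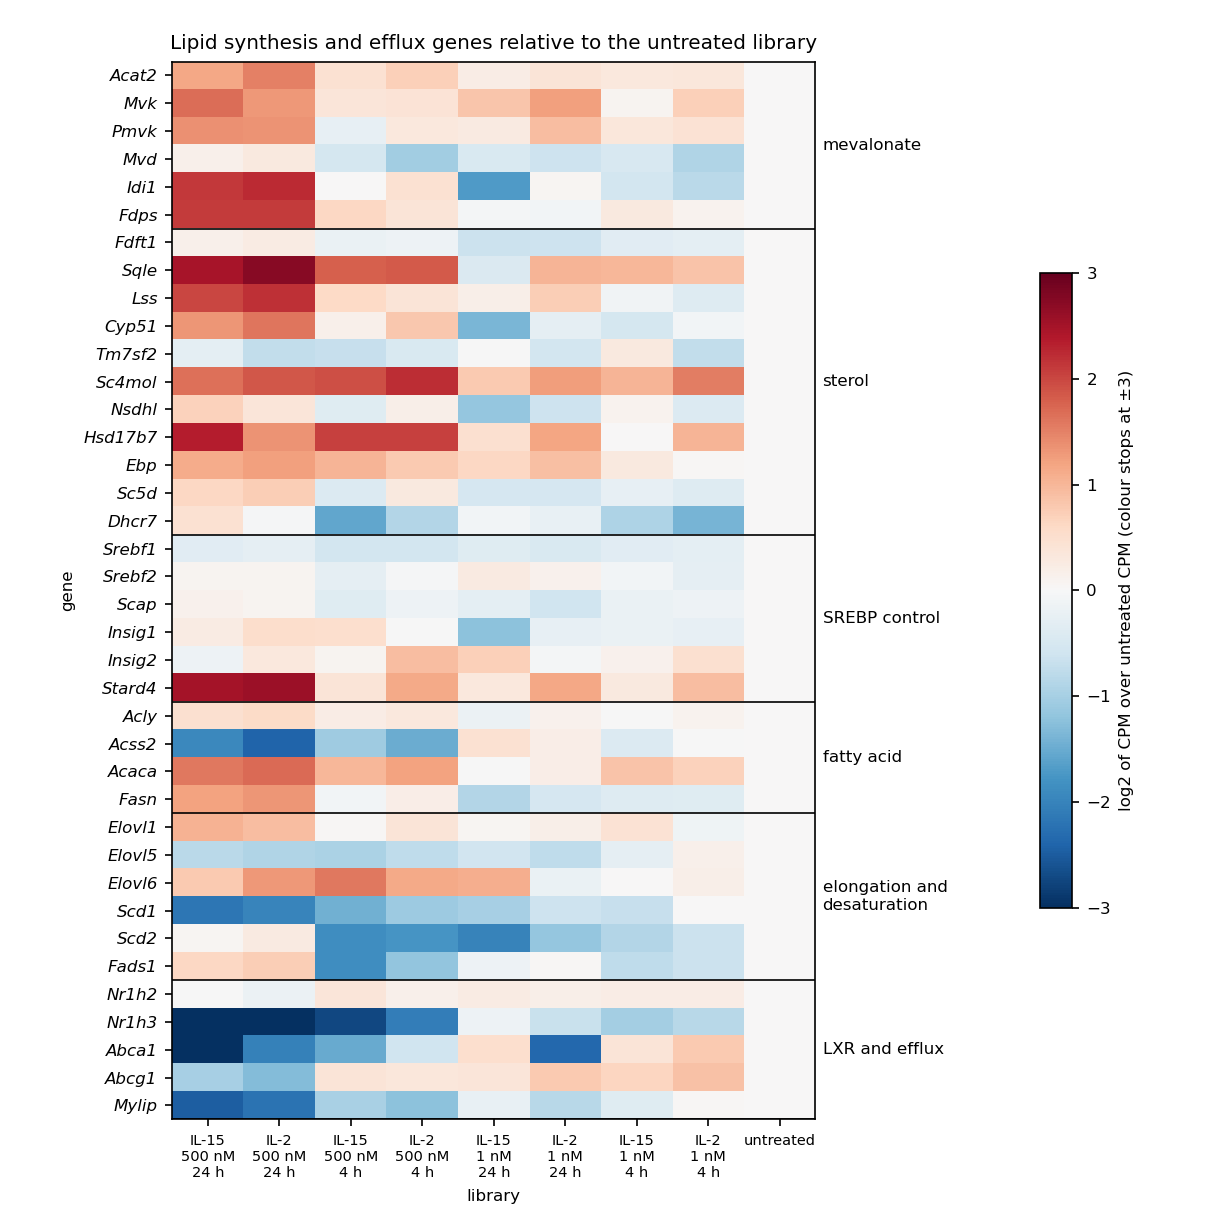
Colour shows log2 of each gene's CPM over its CPM in the untreated library, for 38 genes (rows, by role) in the 9 libraries (columns); Fads2 is left out because 3 libraries held no read of it. The 2 columns at 500 nM and 24 h hold the highest levels in all 6 mevalonate rows and in 7 of 11 sterol rows, and the lowest for Nr1h3, Mylip, Scd1 and Acss2.

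The mevalonate pathway builds farnesyl diphosphate, the precursor of sterols and of prenyl anchors on proteins. After 24 h, 5 of its 6 enzymes were higher at 500 nM. Idi1, the isomerase of isopentenyl diphosphate, had 36.9 (IL-15) and 40.0 (IL-2) CPM at 500 nM for 24 h, 8.49 and 11.5 CPM with these cytokines at 500 nM for 4 h, 2.62 and 8.87 CPM at 1 nM for 24 h, and 5.77 and 4.82 CPM at 1 nM for 4 h. Untreated cells had 8.46 CPM. Both 500 nM libraries at 24 h were well above all others, which overlapped each other and the untreated level. The log2 fold change at 24 h was 2.86 ± 0.43 (adjusted p = 0.000429), and at 4 h it was 0.87 ± 0.41 (adjusted p = 0.241). Fdps, which joins the isoprene units to farnesyl diphosphate, had 65.7 (IL-15) and 65.7 (IL-2) CPM at 500 nM for 24 h, 23.5 and 20.1 CPM with these cytokines at 500 nM for 4 h, 14.8 and 14.5 CPM at 1 nM for 24 h, and 18.8 and 16.4 CPM at 1 nM for 4 h. Untreated cells had 15.3 CPM. The 2 cytokines gave close Fdps levels at each dose and time, and the exons of Fdps share 1124 bases with the predicted gene Gm43738 on the same strand in the GENCODE annotation of GRCm38. The log2 fold change of Fdps was 2.16 ± 0.23 at 24 h (adjusted p = 5.26e-05) and 0.31 ± 0.22 at 4 h (adjusted p = 0.477).

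Acat2, the cytosolic thiolase that opens the pathway, had 104.7 (IL-15) and 135.2 (IL-2) CPM at 500 nM for 24 h, against 54.9 (IL-15) and 61.6 (IL-2) CPM at 1 nM for 24 h and 47.2 CPM in untreated cells. Its log2 fold change for dose at 24 h was 1.03 ± 0.19 (adjusted p = 0.00135). Acat2 has a closely related neighbour, Acat3, and how the authors treated reads that match several places is not stated in the sources used here, so its level is uncertain. Pmvk, phosphomevalonate kinase, rose by 0.76 ± 0.25 at 24 h (adjusted p = 0.0325), but was not called without the IL-2 library at 500 nM for 24 h or either IL-15 library at 24 h. Mvd, mevalonate diphosphate decarboxylase, rose by 0.77 ± 0.24 (adjusted p = 0.0274), and was not called without either IL-2 library at 24 h or the IL-15 library at 1 nM for 24 h. The Mvd transcript with the highest count is listed as a non-coding RefSeq transcript of that gene. Mvk, mevalonate kinase, gave 30.9 (IL-15) and 23.6 (IL-2) CPM at 500 nM for 24 h, against 17.1 (IL-15) and 22.4 (IL-2) CPM at 1 nM for 24 h, and its log2 fold change of 0.49 ± 0.30 was not called (adjusted p = 0.251).

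From squalene to cholesterol, 7 of 11 enzymes were higher at 500 nM after 24 h and none was lower. Sqle, squalene epoxidase and a rate-controlling step, had 72.6 (IL-15) and 86.1 (IL-2) CPM at 500 nM for 24 h, 45.4 and 46.2 CPM with these cytokines at 500 nM for 4 h, 9.63 and 26.2 CPM at 1 nM for 24 h, and 26.1 and 23.6 CPM at 1 nM for 4 h. Untreated cells had 13.0 CPM. All 4 libraries at 500 nM were above all 4 at 1 nM, and the IL-15 library at 1 nM for 24 h was the one treated library below untreated. The log2 fold change was 2.22 ± 0.34 at 24 h (adjusted p = 0.000425) and 0.87 ± 0.32 at 4 h (adjusted p = 0.12). Cyp51, the lanosterol demethylase, had 143.9 (IL-15) and 174.2 (IL-2) CPM at 500 nM for 24 h, 63.9 and 101 CPM with these cytokines at 500 nM for 4 h, 22.2 and 47.8 CPM at 1 nM for 24 h, and 39.7 and 54.1 CPM at 1 nM for 4 h. Untreated cells had 57.5 CPM. Its 500 nM libraries also stood above all 1 nM libraries, with the untreated level just under the lowest of them. For dose, Cyp51 gave a log2 fold change of 2.27 ± 0.23 at 24 h (adjusted p = 3.57e-05) and 0.79 ± 0.22 at 4 h (adjusted p = 0.037). The call at 4 h was lost without any of the 4 h libraries or either 500 nM library at 24 h.

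Lss, which closes the sterol rings, had 30.4 (IL-15) and 34.6 (IL-2) CPM at 500 nM for 24 h, against 8.53 (IL-15) and 12.7 (IL-2) CPM at 1 nM for 24 h and 7.59 CPM in untreated cells, a log2 fold change for dose of 1.62 ± 0.31 (adjusted p = 0.00187). Sc5d, a sterol desaturase, rose by 1.17 ± 0.24 (adjusted p = 0.00269). Nsdhl, a sterol dehydrogenase of the demethylation steps, rose by 1.41 ± 0.36 (adjusted p = 0.0112), and was not called without either IL-15 library at 24 h. Fdft1, squalene synthase, rose by 0.83 ± 0.18 (adjusted p = 0.00426), and was not called without the IL-2 library at 500 nM for 24 h. In the same annotation the exons of Fdft1 overlap those of Ctsb on the opposite strand over 774 bases. The counted Fdft1 transcript has 2862 exon bases. Since strand use in the authors' counting is not given in the sources used here, reads in the shared stretch cannot be told from reads of that lysosomal protease gene. Smaller or predicted opposite-strand partners overlap Idi1, Lss, Cyp51, Srebf1, Scap, Acss2 and Elovl1 over between 13 and 785 bases.

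The other sterol enzymes were called for dose at 1 time at most. Sc4mol, the sterol methyl oxidase now named Msmo1, had 27.4 (IL-15) and 31.8 (IL-2) CPM at 500 nM for 24 h, 33.5 and 40.9 CPM with these cytokines at 500 nM for 4 h, 15.01 and 20.7 CPM at 1 nM for 24 h, and 17.9 and 25.4 CPM at 1 nM for 4 h. Untreated cells had 8.75 CPM. Every treated library was above untreated, and each 500 nM library was above each 1 nM library. Its log2 fold change for dose was 0.74 ± 0.23 at 24 h (adjusted p = 0.0298) and 0.80 ± 0.23 at 4 h (adjusted p = 0.0511), and the call at 24 h was lost without any of the 4 libraries of 24 h. Ebp, the sterol isomerase, was called at 4 h (0.74 ± 0.20, adjusted p = 0.0377) and not at 24 h (0.40 ± 0.20, adjusted p = 0.158), and the call at 4 h was lost without any 4 h library or either 500 nM library at 24 h. Hsd17b7 (1.11 ± 0.56 at 24 h), Dhcr7 (0.39 ± 0.36), which acts at the last step, and Tm7sf2 (-0.24 ± 0.42), a sterol reductase, were not called for dose at 24 h.

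Summed over the 17 mevalonate and sterol enzymes, the level was 907.2 (IL-15) and 994.5 (IL-2) CPM at 500 nM for 24 h, 522.7 and 597.3 CPM with these cytokines at 500 nM for 4 h, 373.4 and 469.9 CPM at 1 nM for 24 h, and 421.1 and 416.4 CPM at 1 nM for 4 h. Untreated cells had 426.4 CPM. The 1 nM libraries lay on both sides of the untreated one.

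**Figure D2:**
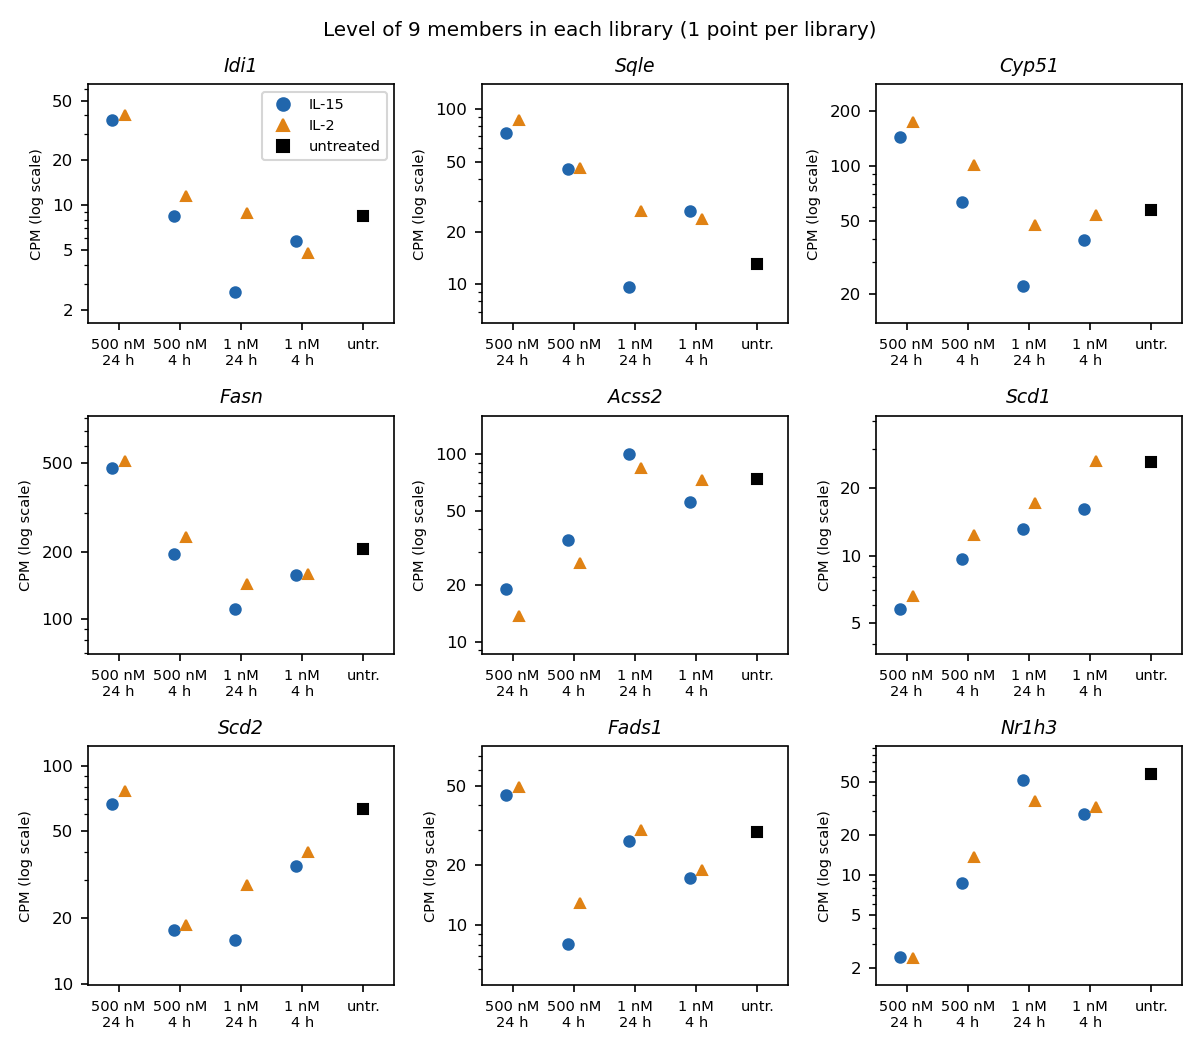
Each point is the level of 1 library (CPM, log axis) for 9 genes, by dose and time, with IL-15 as circles, IL-2 as triangles and untreated as squares; there is 1 library per condition and no error bar. Idi1, Sqle, Cyp51 and Fasn are highest at 500 nM for 24 h, Acss2, Scd1 and Nr1h3 are lowest there, and Scd2 and Fads1 are low at 500 nM for 4 h and high at 500 nM for 24 h.

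Of the 6 genes of the SREBPs, their control and sterol transport, 3 were higher at 500 nM after 24 h and none was lower. Neither SREBP gene was called. Srebf2, which encodes the main sterol-responsive SREBP, had 220.6 (IL-15) and 222.5 (IL-2) CPM at 500 nM for 24 h, against 253.5 (IL-15) and 228.8 (IL-2) CPM at 1 nM for 24 h and 208.6 CPM in untreated cells. Srebf1, which encodes the SREBP best known for fatty acid genes, had 144.2 (IL-15) and 151.8 (IL-2) CPM at 500 nM for 24 h, against 141.5 (IL-15) and 132.5 (IL-2) CPM at 1 nM for 24 h and 182.6 CPM in untreated cells. Log2 fold changes for dose at 24 h were -0.12 ± 0.18 for Srebf2 (adjusted p = 0.665) and 0.11 ± 0.17 for Srebf1 (adjusted p = 0.677). The files count transcripts, so they hold nothing on cleavage of these proteins. Stard4, a carrier of sterol between membranes, had 21.6 (IL-15) and 22.6 (IL-2) CPM at 500 nM for 24 h, 5.05 and 8.45 CPM with these cytokines at 500 nM for 4 h, 4.78 and 8.59 CPM at 1 nM for 24 h, and 4.72 and 7.29 CPM at 1 nM for 4 h. Untreated cells had 3.84 CPM. It rose by 1.8 ± 0.35 with dose at 24 h (adjusted p = 0.00206), and was not called without the IL-15 library at 500 nM for 24 h. Insig1 rose by 1.07 ± 0.35 (adjusted p = 0.0366) and Scap by 0.54 ± 0.19 (adjusted p = 0.0413). Insig1 lost its call without the IL-15 library at 1 nM for 24 h or either 500 nM library at 24 h, and Scap without either IL-2 library at 24 h or the IL-15 library at 500 nM for 24 h. Insig2 was not called (-0.32 ± 0.39, adjusted p = 0.58). Outside these 6 genes, Mbtps1, a protease that cuts SREBP in the Golgi, had 82.6 (IL-15) and 88.1 (IL-2) CPM at 500 nM for 24 h, against 159.7 (IL-15) and 141.1 (IL-2) CPM at 1 nM for 24 h and 118.5 CPM in untreated cells. It fell by 0.82 on the log2 scale with dose at 24 h (SE 0.18, adjusted p = 0.0048) and is named after its value was seen. Mbtps2, the other protease that cuts SREBP, lay the other way and was not called. Its level was 5.07 (IL-15) and 5.95 (IL-2) CPM at 500 nM for 24 h, against 2.67 (IL-15) and 2.51 (IL-2) CPM at 1 nM for 24 h.

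Of the 4 enzymes of fatty acid synthesis, 3 were higher and 1 was lower at 500 nM after 24 h. Fasn, fatty acid synthase, had 474.8 (IL-15) and 511.3 (IL-2) CPM at 500 nM for 24 h, 194.9 and 234.2 CPM with these cytokines at 500 nM for 4 h, 111.3 and 143.9 CPM at 1 nM for 24 h, and 157.4 and 159 CPM at 1 nM for 4 h. Untreated cells had 205.6 CPM. At 1 nM it was below untreated in all 4 libraries, and at 500 nM for 24 h it was above all others. The log2 fold change was 1.96 ± 0.18 at 24 h (adjusted p = 2.39e-05) and 0.43 ± 0.18 at 4 h (adjusted p = 0.165). Acaca, acetyl-CoA carboxylase and the committed step, had 48.8 (IL-15) and 52.2 (IL-2) CPM at 500 nM for 24 h, 32.1 and 37.3 CPM with these cytokines at 500 nM for 4 h, 16.2 and 18.6 CPM at 1 nM for 24 h, and 29.4 and 26.1 CPM at 1 nM for 4 h. Untreated cells had 16.2 CPM. At 4 h the 500 nM libraries lay just above those at 1 nM, and the 1 nM libraries at 24 h were near the untreated level. For dose, Acaca gave a log2 fold change of 1.54 ± 0.23 at 24 h (adjusted p = 0.000365) and 0.32 ± 0.22 at 4 h (adjusted p = 0.455).

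The enzymes that supply acetyl-CoA moved in opposite directions. Acss2, which makes acetyl-CoA from acetate, had 19.1 (IL-15) and 13.8 (IL-2) CPM at 500 nM for 24 h, 35.0 and 26.3 CPM with these cytokines at 500 nM for 4 h, 100.3 and 84.2 CPM at 1 nM for 24 h, and 55.4 and 73.0 CPM at 1 nM for 4 h. Untreated cells had 73.4 CPM. All 4 libraries at 500 nM were below all others. Acss2 gave a log2 fold change of -2.49 ± 0.25 at 24 h (adjusted p = 3.57e-05) and -1.09 ± 0.24 at 4 h (adjusted p = 0.0115), the last lost without either IL-2 library at 4 h. Acly, which makes acetyl-CoA from citrate, had 212.5 (IL-15) and 228.7 (IL-2) CPM at 500 nM for 24 h, against 134.4 (IL-15) and 166 (IL-2) CPM at 1 nM for 24 h and 152.5 CPM in untreated cells. It rose by 0.56 ± 0.17 (adjusted p = 0.0264), and was not called without the IL-15 library at 1 nM for 24 h or either 500 nM library at 24 h. On the authors' RPKM scale, which divides by exon length, the ratio of Acly to Acss2 was 7.33 (IL-15) and 11.0 (IL-2) at 500 nM for 24 h, 3.33 and 4.77 with these cytokines at 500 nM for 4 h, 0.884 and 1.30 at 1 nM for 24 h, 1.802 and 1.48 at 1 nM for 4 h, and 1.37 in untreated cells. The 500 nM ratios all stood above the others.

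Elongases and desaturases, which lengthen fatty acids and place double bonds in them, split: 3 of 7 were higher and 1 was lower at 500 nM after 24 h. The stearoyl-CoA desaturases Scd1 and Scd2, which make monounsaturated fatty acids, went opposite ways with dose after 24 h. After 4 h both had lower levels at 500 nM than at 1 nM, and only Scd2 was called. Scd2 had 66.5 (IL-15) and 76.4 (IL-2) CPM at 500 nM for 24 h, 17.5 and 18.6 CPM with these cytokines at 500 nM for 4 h, 15.8 and 28.3 CPM at 1 nM for 24 h, and 34.7 and 40.2 CPM at 1 nM for 4 h. Untreated cells had 63.3 CPM. The 500 nM libraries were thus below those at 1 nM after 4 h and above them after 24 h, when they reached the untreated level. Its log2 fold change for dose was 1.73 ± 0.24 at 24 h (adjusted p = 0.000245) and -1.04 ± 0.24 at 4 h (adjusted p = 0.0144), and the call at 4 h was lost without any 1 of the 4 libraries of 4 h. Scd1 had 5.79 (IL-15) and 6.60 (IL-2) CPM at 500 nM for 24 h, 9.66 and 12.3 CPM with these cytokines at 500 nM for 4 h, 13.1 and 17.2 CPM at 1 nM for 24 h, and 16.2 and 26.5 CPM at 1 nM for 4 h. Untreated cells had 26.2 CPM. Each 500 nM library was below each 1 nM library. Scd1 gave a log2 fold change of -1.28 ± 0.28 at 24 h (adjusted p = 0.00471), lost without the IL-2 library at 500 nM for 24 h, and -0.93 ± 0.28 at 4 h (adjusted p = 0.0551). Per exon length (RPKM), Scd2 over Scd1 was 10.2 (IL-15) and 10.3 (IL-2) at 500 nM for 24 h, between 1.07 and 1.91 in the other 6 treated libraries, and 2.15 in untreated cells. Scd1 and Scd2 are similar in sequence, and how reads shared between them were counted is not given in the sources used here.

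Fads1, which desaturates polyunsaturated fatty acids, had 45.0 (IL-15) and 49.0 (IL-2) CPM at 500 nM for 24 h, 8.02 and 12.9 CPM with these cytokines at 500 nM for 4 h, 26.5 and 29.9 CPM at 1 nM for 24 h, and 17.1 and 18.8 CPM at 1 nM for 4 h. Untreated cells had 29.2 CPM. It was lowest at 500 nM for 4 h and highest at 500 nM for 24 h. Its log2 fold change for dose was 0.74 ± 0.24 at 24 h (adjusted p = 0.0349), lost without any 1 of the 4 libraries of 24 h, and -0.80 ± 0.25 at 4 h (adjusted p = 0.0611). Fads2, the desaturase that precedes it, was near the limit of detection, with 18 (IL-15) and 24 (IL-2) reads at 500 nM for 24 h, between 0 and 9 reads in the other 6 treated libraries and 4 reads in untreated cells, and it was not called in any comparison. Elovl1, which extends very long saturated chains, had 237 (IL-15) and 219.6 (IL-2) CPM at 500 nM for 24 h, against 120.9 (IL-15) and 131.3 (IL-2) CPM at 1 nM for 24 h and 115.5 CPM in untreated cells. It rose by 0.85 ± 0.22 (adjusted p = 0.0106), and was not called without the IL-15 library at 1 nM for 24 h or either 500 nM library at 24 h. Elovl5, which extends polyunsaturated chains, fell by 0.82 on the log2 scale with dose at 4 h (SE 0.20, adjusted p = 0.0192), a call lost without either 500 nM library at 4 h or the IL-2 library at 1 nM for 4 h, and was not called at 24 h (-0.20 ± 0.20, adjusted p = 0.498). Elovl6, which extends palmitate, was not called at 24 h (0.56 ± 0.39, adjusted p = 0.307) or at 4 h (1.25 ± 0.38, adjusted p = 0.0607).

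The LXR and export genes moved against the synthesis genes, with 3 of 5 lower and none higher at 500 nM after 24 h. Nr1h3, which encodes LXR alpha and is also abundant in macrophages, had 2.40 (IL-15) and 2.38 (IL-2) CPM at 500 nM for 24 h, 8.67 and 13.6 CPM with these cytokines at 500 nM for 4 h, 51.6 and 35.9 CPM at 1 nM for 24 h, and 28.5 and 32.4 CPM at 1 nM for 4 h. Untreated cells had 57.5 CPM. All 500 nM libraries were below all others. Nr1h3 gave a log2 fold change of -4.20 ± 0.33 at 24 h (adjusted p = 8.16e-06) and -1.46 ± 0.29 at 4 h (adjusted p = 0.00632), the last lost without the IL-2 library at 1 nM for 4 h or the IL-15 library at 500 nM for 4 h. Like the summed macrophage and monocyte markers, Nr1h3 was lowest in both 500 nM libraries at 24 h and highest in untreated cells, and the part of those cells in its level was not tested. Nr1h2, which encodes LXR beta, had 221.5 (IL-15) and 198.6 (IL-2) CPM at 500 nM for 24 h, against 263.6 (IL-15) and 252.9 (IL-2) CPM at 1 nM for 24 h and 222.6 CPM in untreated cells, and was not called (-0.30 ± 0.17, adjusted p = 0.215). Per exon length (RPKM), Nr1h2 over Nr1h3 was 91.8 (IL-15) and 83.1 (IL-2) at 500 nM for 24 h, 33.0 and 18.1 with these cytokines at 500 nM for 4 h, 5.09 and 7.01 at 1 nM for 24 h, 9.01 and 7.996 at 1 nM for 4 h, and 3.85 in untreated cells. Nr1h2 was thus the more abundant receptor transcript in every library.

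Abcg1, a sterol exporter, had 33.0 (IL-15) and 26.9 (IL-2) CPM at 500 nM for 24 h, 87.0 and 83.6 CPM with these cytokines at 500 nM for 4 h, 85.4 and 115.1 CPM at 1 nM for 24 h, and 103.3 and 122 CPM at 1 nM for 4 h. Untreated cells had 66.3 CPM. It was above untreated in the other 6 treated libraries. The macrophage and monocyte markers were split in some of these. At 1 nM for 24 h, 9 (IL-15) and 10 (IL-2) of the 16 were below untreated. Marco had 200.8 (IL-15) and 199.8 (IL-2) CPM there, against 13.8 CPM in untreated cells. At 500 nM for 4 h, 14 (IL-15) and 16 (IL-2) of the 16 markers were below untreated, and at 1 nM for 4 h, 13 (IL-15) and 15 (IL-2) were. Their part in Abcg1 was not tested. Abcg1 gave a log2 fold change of -1.73 ± 0.22 at 24 h (adjusted p = 0.000124) and -0.40 ± 0.21 at 4 h (adjusted p = 0.291). Mylip, a ubiquitin ligase that removes lipoprotein receptors, had 28.9 (IL-15) and 34.5 (IL-2) CPM at 500 nM for 24 h, 81.2 and 68.7 CPM with these cytokines at 500 nM for 4 h, 136.4 and 90.7 CPM at 1 nM for 24 h, and 124.7 and 165.5 CPM at 1 nM for 4 h. Untreated cells had 160.3 CPM. Each 500 nM library was below each 1 nM library. Mylip gave a log2 fold change of -1.83 ± 0.24 at 24 h (adjusted p = 0.000191) and -0.96 ± 0.24 at 4 h (adjusted p = 0.022), the last lost without the IL-2 library at 1 nM for 4 h or either 500 nM library at 4 h. Abca1, the other sterol exporter, had 0.653 (IL-15) and 1.76 (IL-2) CPM at 500 nM for 24 h, against 10.2 (IL-15) and 1.41 (IL-2) CPM at 1 nM for 24 h and 7.20 CPM in untreated cells. At 24 h the 2 cytokines differed more at 1 nM than the doses did with IL-2, and the log2 fold change of -2.30 ± 0.87 was not called (adjusted p = 0.0641). At 4 h Abca1 had 2.51 (IL-15) and 4.79 (IL-2) CPM at 500 nM, against 9.47 (IL-15) and 12.4 (IL-2) CPM at 1 nM. Its log2 fold change of -1.59 ± 0.77 at 4 h was not called (adjusted p = 0.253).

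After 4 h, 2 of the 39 genes were higher at 500 nM than at 1 nM (Cyp51 and Ebp), against 5.42% of all genes, and 5 were lower (Acss2, Elovl5, Scd2, Nr1h3 and Mylip), against 4.63%. The median log2 fold change was 0.05. These calls depended on single libraries: their number was 0 without the IL-2 library at 1 nM for 4 h, 1 without the IL-15 library at 500 nM for 4 h, 2 without the IL-2 library at 500 nM for 4 h, 4 without the IL-15 library at 1 nM for 4 h, and 11 without either 1 nM library at 24 h. The S phase and mitosis list had a median log2 fold change of 0.39 at 4 h and of 2.65 at 24 h.

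The difference between the dose effects at 24 h and at 4 h was itself tested as an interaction. It was called above 0 for 6 of the 39 genes (4.06% of all genes) and called below 0 for 3 (4.76%), with medians of 0.57 over the 39 genes and -0.05 over all genes. The 6 were Fdps, Cyp51, Acaca, Fasn, Scd2 and Fads1, and the 3 were Acss2, Nr1h3 and Abcg1. Scd2 gave 2.78 ± 0.34 (adjusted p = 0.00114), Fdps 1.86 ± 0.32 (adjusted p = 0.00608) and Fasn 1.53 ± 0.25 (adjusted p = 0.00507). Nr1h3 gave -2.74 ± 0.42 (adjusted p = 0.0035). These 4 were called in every refit that left out 1 library. The count of 9 was 5 without either 500 nM library at 24 h and 4 without either IL-15 library at 4 h. Idi1 (1.99 ± 0.59) and Stard4 (1.64 ± 0.49) gave large values that just missed the threshold (adjusted p = 0.0561 for both).

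**Figure D3:**
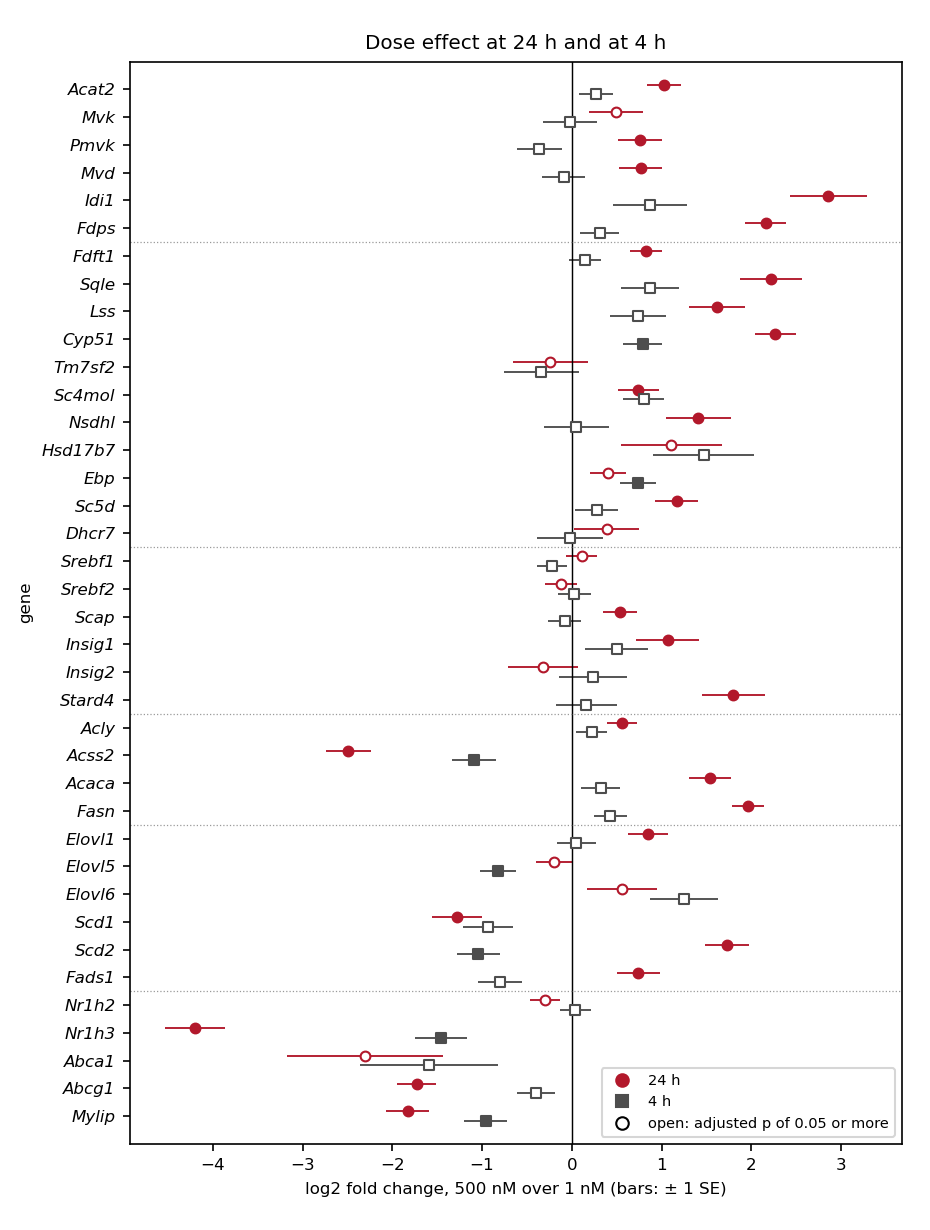
Each row is 1 of 38 genes, with its log2 fold change of 500 nM over 1 nM at 24 h (circles) and at 4 h (squares) and bars of ± 1 SE from edgeR's fit; filled marks have an adjusted p under 0.05, and Fads2 is not drawn. Most mevalonate and sterol genes lie further right at 24 h than at 4 h, Scd2 changes side, and Nr1h3 is the furthest left, at -4.20 at 24 h.

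Averaged over both times in a fit of main effects, 9 of the 39 genes were higher at 500 nM (7.63% of all genes) and 5 were lower (8.47%), with medians of 0.39 and -0.03 over the 39 genes and over all genes. Mylip, Scd1, Nr1h3 and Acss2 were called lower in every refit without 1 library. The count of 14 was 5 without the IL-2 library at 1 nM for 4 h, 6 without that at 1 nM for 24 h, 5 without that at 500 nM for 24 h, 8 without the IL-15 library at 1 nM for 24 h and 6 without that at 500 nM for 24 h.

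In the same fit, 24 h against 4 h called 3 genes higher and none lower, with 2.69% of all genes higher. The 3 were Fads1 (1.42 ± 0.33, adjusted p = 0.0426), Dhcr7 (1.20 ± 0.28, adjusted p = 0.0427) and Lss (1.16 ± 0.27, adjusted p = 0.0452). Dhcr7 had 18.3 (IL-15) and 12.9 (IL-2) CPM at 500 nM for 24 h and 12.4 (IL-15) and 11.2 (IL-2) CPM at 1 nM for 24 h, against 4.46 (IL-15) and 7.12 (IL-2) CPM at 500 nM for 4 h and 6.91 (IL-15) and 5.03 (IL-2) CPM at 1 nM for 4 h, with 13.2 CPM in untreated cells. The 24 h libraries lay near the untreated level and the 4 h libraries below it. The count of 3 was 0 without any 1 of 6 libraries (IL-2 at 1 nM for 4 h or 24 h, IL-2 at 500 nM for 4 h or 24 h, IL-15 at 500 nM for 4 h or 24 h) and 7 without the IL-15 library at 1 nM for 24 h.

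Set against the untreated library, the 500 nM conditions moved the most genes. At 500 nM for 24 h, 14 of the 39 genes were higher than untreated (12.8% of all genes) and 6 were lower (12.3%). The higher ones were led by Sqle (2.60 ± 0.45, adjusted p = 0.00151), Stard4 (2.55 ± 0.48, adjusted p = 0.00238), Idi1 (2.20 ± 0.55, adjusted p = 0.0118; not called without the IL-15 library at 500 nM for 24 h) and Fdps (2.11 ± 0.30, adjusted p = 0.000556). The lower ones were Nr1h3 (-4.59 ± 0.35), Mylip (-2.34 ± 0.28), Acss2 (-2.17 ± 0.28), Scd1 (-2.08 ± 0.33), Abcg1 (-1.14 ± 0.25) and Elovl5 (-0.85 ± 0.23). Abcg1 lost that call without the IL-2 library at 500 nM for 24 h and Elovl5 without either 500 nM library at 24 h. Scd2 was not called (0.17 ± 0.29, adjusted p = 0.721).

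At 500 nM for 4 h, 4 genes were higher than untreated (7.92% of all genes) and 7 were lower (8.47%). Sc4mol (2.08 ± 0.32, adjusted p = 0.000933), Sqle (1.83 ± 0.43, adjusted p = 0.013), Acaca (1.10 ± 0.29, adjusted p = 0.0221) and Ebp (0.91 ± 0.26, adjusted p = 0.032) were the 4. The 7 were Nr1h3 (-2.38 ± 0.33), Scd2 (-1.81 ± 0.28), Fads1 (-1.50 ± 0.29), Acss2 (-1.27 ± 0.28), Scd1 (-1.26 ± 0.33), Mylip (-1.10 ± 0.28) and Elovl5 (-0.86 ± 0.23). The count of 11 was 5 without the IL-15 library at 500 nM for 4 h, when Sc4mol, Scd2, Nr1h3, Acss2 and Fads1 were called.

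At 1 nM few genes stood apart from untreated. At 4 h, Sc4mol was higher (1.29 ± 0.31, adjusted p = 0.031) and no gene was lower by edgeR, while 2.75% of all genes were higher and 3.55% lower. Sc4mol lost that call without either 1 nM library at 4 h or either 500 nM library at 24 h. At 24 h, Scd2 was lower (-1.56 ± 0.28, adjusted p = 0.0156) and no gene was higher by edgeR, while 0.861% of all genes were higher and 0.786% lower. Unadjusted p was under 0.05 for 9 of the 39 genes at 4 h and for 10 at 24 h, and DESeq2 called 1 and 2 of them. The untreated condition has a single library in all these comparisons, which therefore share it, and its spread is assumed to be that of the treated ones.

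No gene among the 39 was called between the cytokines. IL-15 against IL-2 over all doses and times called 0 of 39 genes and 0% of all genes by edgeR. An unadjusted p under 0.05 was found for 0 of the 39 and for 125 of all genes, and DESeq2 called 0 and 2. The largest difference among genes with more than a few reads was that of Cyp51, at -0.56 ± 0.30 (log2 of IL-15 over IL-2). Whether the cytokine difference depended on dose was called for 0 of the 39 genes and 0.0148% of all genes, with an unadjusted p under 0.05 for 1 of the 39 (Abca1, -2.37 ± 0.95) and 630 of all genes, and 0 and 5 called by DESeq2. Whether it depended on time was called for 0 of the 39 and 0% of all genes, with an unadjusted p under 0.05 for 1 of the 39 (Sqle, -0.89 ± 0.39) and 525 of all genes, and 0 and 0 called by DESeq2. A p that misses the threshold in a fit with so few residual degrees of freedom does not show that IL-15 and IL-2 act alike on these genes.

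Among the 4 pairs of IL-15 and IL-2 libraries at the same dose and time, the one with the most 2-fold differences in these genes was that at 1 nM for 24 h, which has no replicate check. Of 38 genes with at least 20 reads in the higher library, 3 were at least 2-fold lower with IL-15 (9.05% of all genes compared) and 2 were at least 2-fold higher (6.55%). These counts are near the shares over all genes compared. Idi1 had 0.295 times its IL-2 level with IL-15 (95% exact counting interval 0.236 to 0.366), Sqle 0.368 times (0.327 to 0.413) and Cyp51 0.465 times (0.43 to 0.503). Insig1 was just outside the 2-fold limit at 0.502 times (0.43 to 0.585). Elovl6 had 2.45 times its IL-2 level with IL-15 (2.17 to 2.76) and Abca1 7.27 times (5.64 to 9.49). These intervals cover counting error between these libraries only, and they treat reads as independent. Amplified reads are not independent molecules, so the intervals may be too narrow. At 500 nM for 24 h, Idi1 (0.921 times), Sqle (0.844) and Cyp51 (0.826) were nearer to equal, and Abca1 was 0.372 times its IL-2 level (0.218 to 0.613). Over the 38 genes at 1 nM for 24 h, 16 were higher with IL-15 and the median log2 ratio was -0.17, against -0.01 over all genes. In this pair the summed macrophage and monocyte markers were 1480 CPM with IL-15 and 1208 CPM with IL-2, and the S phase and mitosis genes 1055 CPM with IL-15 and 1936 CPM with IL-2. The part of these shifts in the ratios was not tested.

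**Figure D4:**
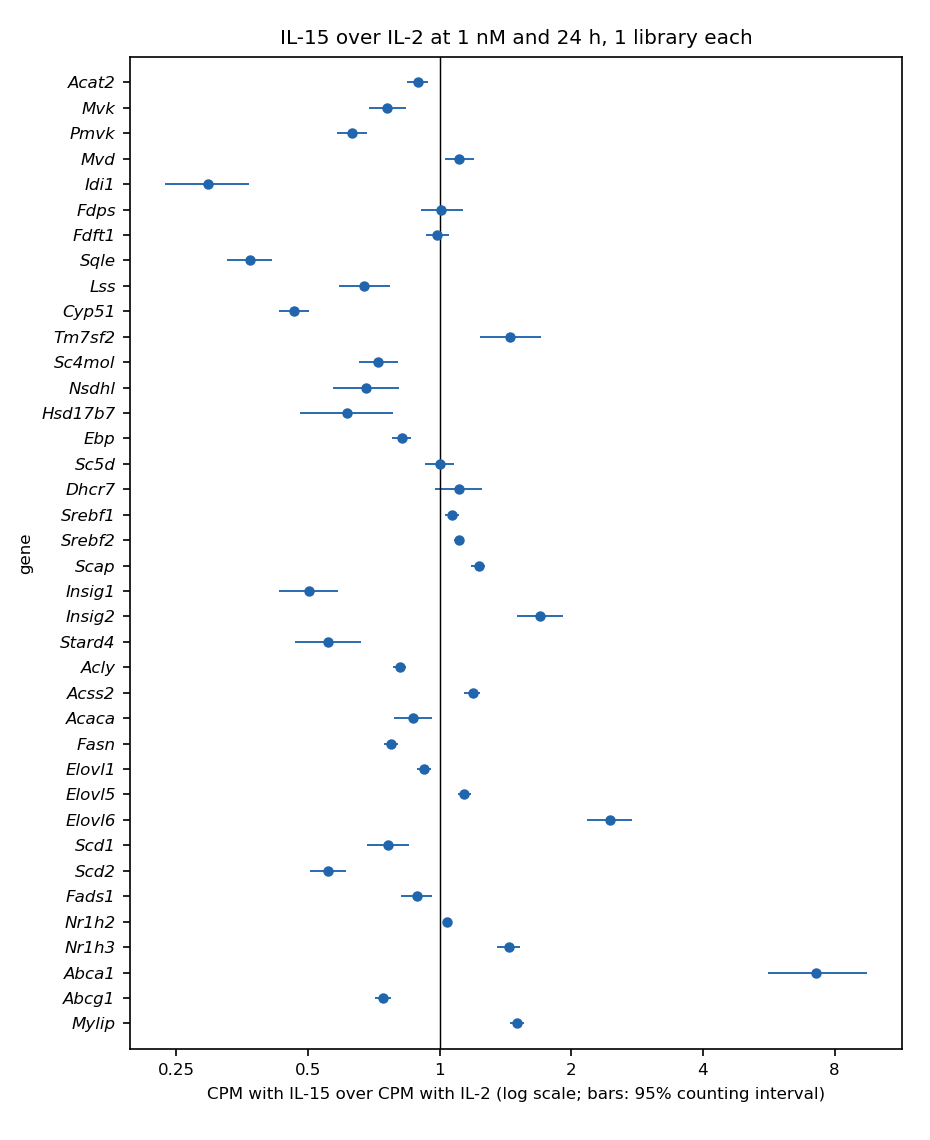
Each point is the ratio of CPM with IL-15 to CPM with IL-2 in the pair of libraries at 1 nM and 24 h, on a log axis, for 38 genes in the order of the pathways; bars are 95% exact counting intervals and there is no replicate. Idi1, Sqle and Cyp51 are the furthest left, and Abca1, at 7.27, is the furthest right.

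A further list of 22 genes of lipid transport, activation, breakdown and SREBP processing was counted in the same tests. After 24 h, 5 were higher (15.6% of all genes) and 4 lower (15.6%) at 500 nM, with a median log2 fold change of -0.14, so these counts are near the share over all genes. Lipa, the lysosomal lipase that frees cholesterol, fell by 1.43 on the log2 scale (SE 0.20, adjusted p = 0.000257), and Npc2, which carries cholesterol out of lysosomes, fell by 1.07 (SE 0.20, adjusted p = 0.00152). Acsl5 (1.33 ± 0.20, adjusted p = 0.000478) and Acsl4 (1.04 ± 0.22, adjusted p = 0.00351), which activate fatty acids with coenzyme A, rose. Lipa had 40.7 (IL-15) and 30.2 (IL-2) CPM at 500 nM for 24 h, against 104.8 (IL-15) and 85.2 (IL-2) CPM at 1 nM for 24 h and 77.5 CPM in untreated cells. Lysosomal genes are abundant in macrophages, whose markers were also lowest at 500 nM for 24 h, and the part of those cells was not tested. After 4 h, 1 was higher (Acsl5; 5.42% of all genes were) and 1 lower (4.63% of all genes were), Cpt1a (-1.0 ± 0.21, adjusted p = 0.00924), the gate of fatty acid entry to mitochondria. Over both times, 3 were higher (7.63% of all genes) and 2 lower (8.47%) for dose, and 3 were higher for time (2.69%), led by Fabp5, a fatty acid carrier (1.85 ± 0.27, adjusted p = 0.0109). Fabp5 had 27.3 (IL-15) and 24.5 (IL-2) CPM at 500 nM for 24 h and 13.7 (IL-15) and 17.1 (IL-2) CPM at 1 nM for 24 h, against 5.78 (IL-15) and 5.42 (IL-2) CPM at 500 nM for 4 h, 6.72 (IL-15) and 4.47 (IL-2) CPM at 1 nM for 4 h, and 3.29 CPM in untreated cells. Each 24 h library was above each 4 h library, and each of these was above untreated.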

How the data were processed

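Per the labels' protocols, pooled RNA was amplified by PCR, fragmented and sequenced on an Illumina HiSeq. Per the submitters' processing notes, CASAVA 1.8 and Bowtie 0.12.4 were used with the mm8 build. The deposited files give raw read counts of 24373 RefSeq transcripts and RPKM values that the authors computed from those counts and exon length, per the file headers and the values. How strand and multi-mapped reads were handled is not stated in these notes.

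The members and lists were chosen with earlier results of these data known. All listed genes in the tables are named, by role, and up to 4 genes of the further lipid list per comparison. Counts were filtered by filterByExpr (minimum count 10, total 15), scaled by TMM and tested by the quasi-likelihood test of edgeR 4.0.16 under R 4.3.3, with legacy deviances, with Benjamini-Hochberg adjustment over 13479 genes at 0.05. Dose, time and cytokine main effects left 4 residual degrees of freedom, condition means with a cytokine term 3, and cytokine interactions 2. CPM uses TMM-scaled library sizes. RPKM was used to compare levels between genes and was not tested. No condition had a second library, so p-values rest on the spread between conditions that each model leaves unexplained, in the condition-means fit the spread between IL-15 and IL-2 libraries beyond 1 constant difference per gene. The fits were tested on simulated data. Alternatives were DESeq2 1.42.0, median-of-ratios scaling, no filter, a mean of at least 50 counts, the mean over transcripts, an added dose by time term and leaving out each library.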

Additional observations from a re-analysis of the deposited data

Results flagged for a closer look

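The dose effect differed between 24 h and 4 h, by edgeR's test of the interaction, in 9 of the 39 genes. The log2 dose effect at 24 h minus that at 4 h was 2.78 for Scd2, 1.86 for Fdps, 1.55 for Fads1, 1.53 for Fasn, 1.48 for Cyp51 and 1.22 for Acaca. It was -2.74 for Nr1h3, -1.40 for Acss2 and -1.34 for Abcg1. Without 1 of the 9 libraries in turn, Acaca was called in 3 refits, Acss2 in 4, Abcg1 and Fads1 in 5 and Cyp51 in 6, and the other 4 genes in all 9.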

How the results depend on the processing

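No paired analysis was possible because each condition is 1 library and no replicate number links libraries; IL-15 and IL-2 libraries share only a dose and time, which the fits already hold as terms. The calls in the 39 genes, 92 over all comparisons, kept their direction under every alternative that gave a value. DESeq2, median-of-ratios scaling and a mean of at least 50 counts kept all 92, and no filter and the mean over transcripts each lost 1, Ebp for dose over both times. The number called for dose was 26 with a dose by time term, instead of 14. For time it was 7 with DESeq2 and 16 with that term, instead of 3. DESeq2 called 11 instead of 7 for dose at 4 h and 2 instead of 1 for 1 nM at 24 h against untreated. Leaving out each library in turn gave 5 to 16 for dose, 0 to 7 for time, 0 to 0 for the cytokines, 4 to 11 for dose by time, 0 to 11 for dose at 4 h and 17 to 26 for dose at 24 h. Against untreated it gave 0 to 1 at 1 nM for 4 h, 1 to 1 at 1 nM for 24 h, 5 to 12 at 500 nM for 4 h and 15 to 21 at 500 nM for 24 h. For the cytokine by dose term it gave 0 to 1, the 1 without either 1 nM library at 4 h, and 0 to 0 for the cytokine by time term. A condition left with 1 library is assumed to vary like the others, and fewer libraries leave fewer degrees of freedom. Other causes of these moves were not tested. Depth was lowest for Fads2, which had at most 24 reads in a library.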

Other observations

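Per exon length (RPKM), the most abundant of the 39 transcripts on average over the 9 libraries was Nr1h2, at 80.7 (IL-15) and 71.0 (IL-2) RPKM at 500 nM for 24 h and 73.1 RPKM in untreated cells. At 500 nM for 24 h Elovl1 was above it, at 95.5 (IL-15) and 86.8 (IL-2) RPKM, against 42.0 RPKM in untreated cells. Srebf2 averaged 31.4 RPKM over the 9 libraries, Acly 27.9 RPKM and Hsd17b7 0.713 RPKM.

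Of the further list of 22 lipid genes, Mlycd, which breaks down malonyl-CoA, the product of Acaca, had 22.2 (IL-15) and 15.8 (IL-2) CPM at 500 nM for 24 h, against 49.6 CPM in untreated cells, a log2 fold change of -1.41 ± 0.28 (edgeR adjusted p = 0.0031). Osbpl8, a carrier of lipid between membranes, had 27.1 (IL-15) and 20.4 (IL-2) CPM at 500 nM for 4 h, against 5.62 CPM in untreated cells, a log2 fold change of 2.08 ± 0.44 (adjusted p = 0.00661). Osbpl8 was above untreated in every treated library, with 11.25 (IL-15) and 18.65 (IL-2) CPM at 1 nM for 4 h. Mlycd was below untreated in every treated library, with 36.92 (IL-15) and 22.16 (IL-2) CPM at 1 nM for 24 h. Acsl5 had 54.6 (IL-15) and 47.1 (IL-2) CPM at 1 nM for 4 h, against 114.9 CPM in untreated cells (-1.17 ± 0.24, adjusted p = 0.0152), and 216.2 (IL-15) and 226.2 (IL-2) CPM at 500 nM for 24 h (0.95 ± 0.26, adjusted p = 0.0178). It was thus below untreated in the first condition and above it in the other.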
